A study of Mus musculus with 12 samples.

Results

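The phase II conjugation enzymes are the families that attach a polar group to a drug, hormone, bile acid or other small molecule so that it can leave the body. They were taken as every gene row in both expression tables whose name starts with Ugt1a, Ugt2, Ugt3, Sult, Gsta, Gstm, Gstp, Gstt, Gstk, Gsto or Gstz followed by a number or letter, leaving out 7 pseudogenes, which gave 65 of 55416 genes. Male C57BL6/J mice, 8 weeks old at the start, received corticosterone (CORT, the main glucocorticoid of rodents) or the vehicle alone (Veh). Both were injected subcutaneously each day for 8 weeks, CORT at 40 mg/kg. The CORT solution held DMSO and Tween-80, and the methods of the study do not spell out what the vehicle held. RNA was sequenced from 3 CORT and 3 Veh livers and from 3 CORT and 3 Veh intestines, the latter being duodenum according to the methods of the study. Each label names a biological replicate, and nothing says that a liver and an intestine library came from the same animal. The values are TPM, a transcript abundance corrected for transcript length and scaled to the same total in every library, so that levels of different genes can be set side by side.

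UDP-glucuronosyltransferases (the Ugt genes) sit in the endoplasmic reticulum and add glucuronic acid, sulfotransferases (Sult) work in the cytosol and add sulfate from the donor PAPS, and glutathione S-transferases (Gst) add the thiol peptide glutathione. Liver and upper intestine are the tissues in which these reactions meet most drugs, bile acids and steroids. Many of the genes are known targets of the nuclear receptors CAR and PXR, of the oxidative-stress factor NRF2 or of the aryl hydrocarbon receptor.

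The treatment was visible in both tissues: Fkbp5, a standard glucocorticoid target, stood 4.23 ± 0.32 higher in CORT liver and 4.30 ± 0.34 higher in CORT duodenum (log2 fold change ± SE), with limma adjusted p-values of 0.00178 and 0.0045. Tsc22d3, another such target, was called in duodenum (2.01 ± 0.25, limma adjusted p = 0.0185) and not in liver (1.92 ± 0.49, limma adjusted p = 0.0623). The libraries held 17897 to 20446 genes above 0, and no 2 were identical. Hepatocyte markers summed to between 76284 and 116279 TPM in every liver. The duodenum libraries differed in pancreatic acinar genes, a 36-gene list made up mostly of digestive enzymes. Of these, Zg16, Reg1, Dmbt1 and Spink1, set apart after their values were seen, summed to between 8810 and 12528 TPM in all 6 samples, and Zg16 is also in the list of goblet and Paneth cell markers. The other 32 summed to 294 TPM in Veh replicate 1, to 41820 and 33225 TPM in Veh replicates 2 and 3, and to between 334 and 563 TPM in the CORT samples, so that Veh replicates 2 and 3 stood apart from the other 4 samples. The chymotrypsinogen gene Ctrb1, for example, was at 14.46, 7733.16 and 6026.18 TPM in Veh and at 0.35, 0.28 and 0.76 TPM in CORT. No acinar gene was called by limma, although 25 of the 34 tested had an unadjusted p under 0.05. The 18 enterocyte markers summed to 37215 to 54509 TPM in Veh duodenum and to 64517 to 74420 TPM in CORT duodenum. Much of this was Apoa4 and Apoa1, with means of 9591 and 9631 TPM in Veh and 19837 and 19495 TPM in CORT. The median log2 fold change of the 18 was 0.25, with 1 called by limma. The 14 immune markers summed to 965 to 1204 TPM in Veh and to 420 to 840 TPM in CORT. The largest part was Jchain, at 785.12, 964.52 and 883.45 TPM in Veh and at 280.82, 488.3 and 212.23 TPM in CORT. The immune median was -0.17, and the 1 gene called, Clec4f, was higher (2.99). The 10 smooth muscle markers summed to 574 to 1080 TPM in Veh and to 415 to 617 TPM in CORT. The smooth muscle markers had a median log2 fold change of -0.61, with 0 called by limma and 4 at an unadjusted p under 0.05. The part of these shifts in the duodenal results below was not tested. Where a value without the acinar genes is given, the listed genes were dropped and each library rescaled. Any other transcripts from acinar cells stay in, so such a value shows the effect of the rescaling alone. Values without Veh replicates 2 and 3 rest on 1 Veh sample. In such whole-tissue samples, fewer cells of a type and less RNA per cell cannot be told apart.

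A gene was tested when its mean reached 1 TPM in either group, on log2(TPM + 1), and was called at a limma adjusted p of 0.05 or less over all genes of the tissue with a fold change over 1.5. Of the 65 phase II genes, 45 passed this filter in liver and 39 in duodenum, 34 of them in both tissues. A further 11 passed in liver only, 5 in duodenum only and 15 in neither. The 11 were Ugt1a5, Ugt1a6b, Ugt1a10, Ugt2b1, Ugt2b37, Ugt3a1, Ugt3a2, Sult1e1, Sult2a7, Sult2a8 and Sult5a1, and the 5 were Ugt1a2, Sult2b1, Sult4a1, Sult6b2 and Gsta5. The 15 below the filter were Ugt1a8, Ugt2a1, Ugt2a2, Sult1c1, Sult2a1 to Sult2a6, Sult3a1, Sult3a2, Sult6b1, Gstt4 and Gsto2, of which Ugt2a1, Sult2a3, Sult2a4, Sult2a5 and Sult2a6 were listed at 0 in all 12 libraries. In liver, 5 of 45 genes were called higher (11.1%, against 4.91% of all tested genes) and 1 lower (2.22%, against 2.01%). In duodenum, 2 of 39 were called higher (5.13%, against 1.23%) and 1 lower (2.56%, against 0.919%). The CORT values lay all above the Veh values for 11 genes in liver (24.4%, against 20.6% of all genes) and all below for 5 (11.1%, against 11.6%), which is close to the background in both directions. In duodenum they lay all above for 8 (20.5%, against 12.2%) and all below for 7 (17.9%, against 14.3%). With 3 against 3 samples the smallest p of an exact two-sided permutation test on a single gene is 0.1, so calls rest on limma alone. Counts of genes at an unadjusted p under 0.05 are given without the share of all genes at that limit. Such counts therefore do not show an effect on a family or list. The median log2 fold change of the phase II genes was -0.09 in liver (-0.18 after median-ratio scaling of the libraries), beside 0.08 for all genes, and -0.10 in duodenum, beside -0.01.

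**Figure D1:**
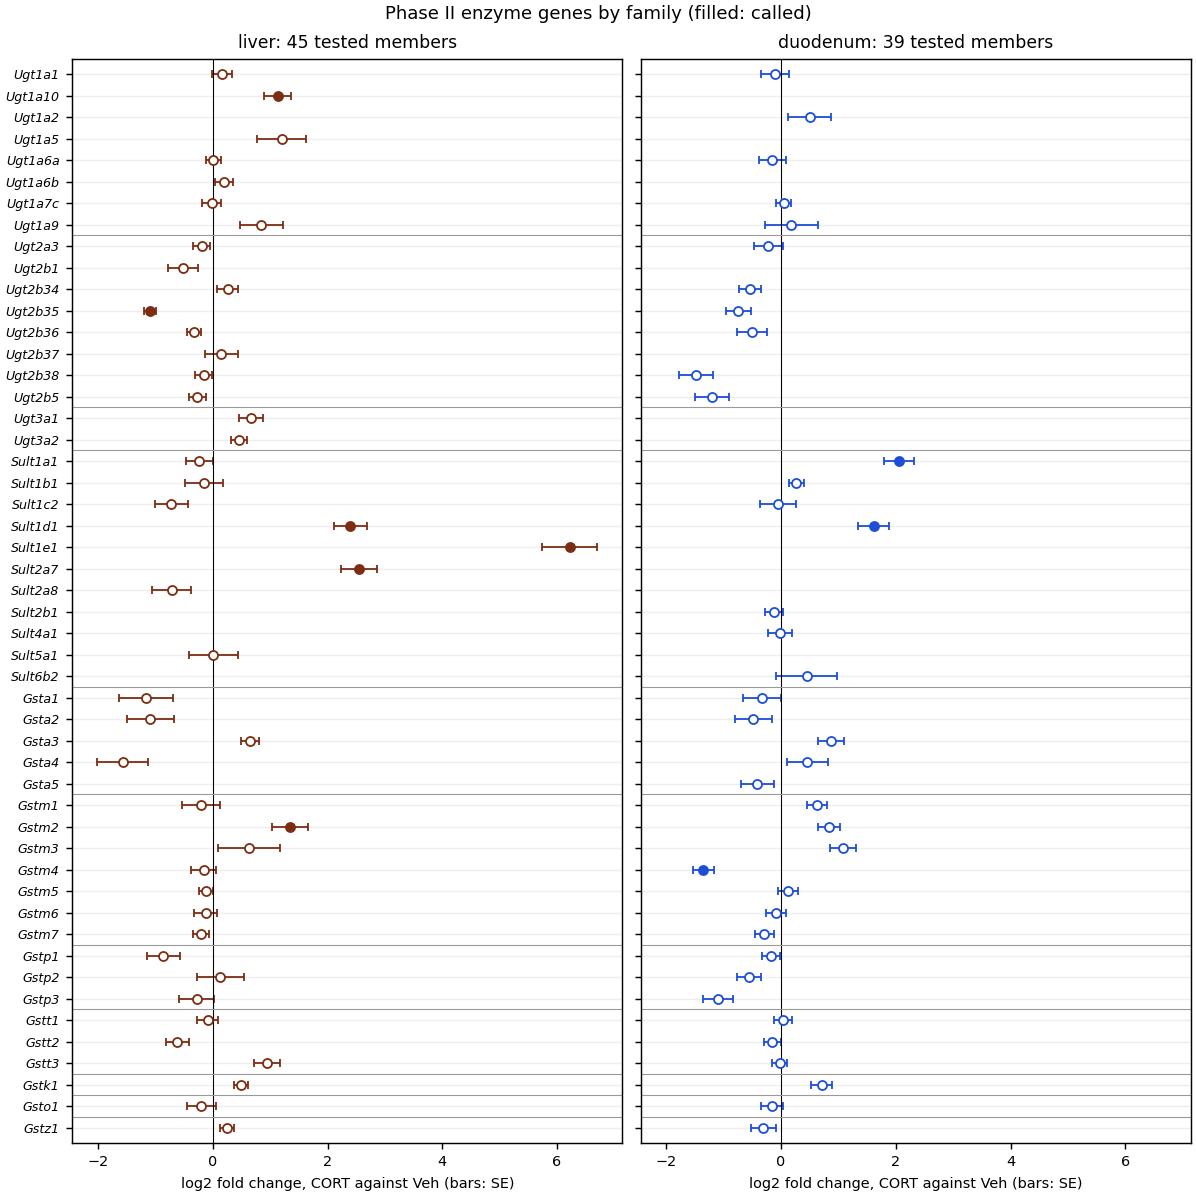
Log2 fold change of CORT against Veh on the log2(TPM + 1) scale for every tested phase II gene, with bars of 1 SE, liver at the left (45 genes) and duodenum at the right (39 genes) on the same axis, and lines between families. Filled points are called, and Sult1e1 at 6.22 in liver lies farthest from 0.

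The sulfotransferases held the largest differences. In liver Sult1e1, Sult1d1 and Sult2a7 rose, in duodenum Sult1a1 and Sult1d1 rose, and no sulfotransferase was called lower in either tissue. Sult1d1 was the only phase II gene called in both. The promoters of the gene with the largest rise and of Ugt2b35, the gene called lower in liver, are printed below as the 250 bases before the RefSeq start of each gene in build GRCm38.p6, 5′ to 3′ along the gene, with no annotated exon inside. The 2 genes lie in the same gene cluster and moved in opposite directions. Capitals mark matches to any of 5 searched motifs: AGAACA (1 arm of the glucocorticoid receptor motif), that arm followed by 3 bases and TGTTC (its palindrome), TGACNNNGC and TGAGNNNGC (cores of the antioxidant response element that NRF2 uses) and GCGTG (the core of the aryl hydrocarbon receptor site), each on both strands.
Sult1e1 (chr5:87591612-87591861, minus strand): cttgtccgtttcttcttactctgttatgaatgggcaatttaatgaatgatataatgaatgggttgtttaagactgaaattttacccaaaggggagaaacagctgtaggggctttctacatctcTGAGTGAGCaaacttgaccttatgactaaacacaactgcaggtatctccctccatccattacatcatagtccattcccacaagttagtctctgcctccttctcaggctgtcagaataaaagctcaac
Ugt2b35 (chr5:87000610-87000859, plus strand): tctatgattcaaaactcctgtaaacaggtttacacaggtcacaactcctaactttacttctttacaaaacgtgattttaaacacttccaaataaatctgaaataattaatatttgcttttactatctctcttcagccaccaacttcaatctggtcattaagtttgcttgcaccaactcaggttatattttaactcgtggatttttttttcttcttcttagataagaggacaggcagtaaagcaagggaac

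Sult1e1 held 1 TGAGNNNGC match, 127 bases before its start, and Ugt2b35 held none of the motifs. For Sult1a1 and Ugt1a10, called higher in duodenum and in liver respectively, the 30 bases around each AGAACA match are shown. Capitals mark AGAACA or, where the match is on the other strand, TGTTCT.
Sult1a1 (chr7:126676435-126676464, minus strand): ttttgtttctggAGAACAgccagtcctagc
Sult1a1 (chr7:126676613-126676642, minus strand): gaaaagtcccatTGTTCTaccttaagttta
Ugt1a10 (chr1:88055312-88055341, plus strand): ttaattaattatTGTTCTtttgtgaataat

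The matches lay 34 and 212 bases before the start of Sult1a1 and 87 bases before that of Ugt1a10. Sult1d1 held a single GCGTG match at 47 bases, and Gstm2 and Gstm4 held no match. Over the 67 windows of 300 bases (250 before and 50 after a start) that RefSeq gave for 56 of the phase II genes, AGAACA was present in 23.9%, beside 19% of 32851 windows of all genes. TGAGNNNGC was present in 22.4%, beside 17.6%, TGACNNNGC in 4.48%, beside 12.4%, and GCGTG in 19.4%, beside 32.4%. The palindrome was in 0 of the 67 windows and in 0.0487% of all. These are matches of letters and not sites of binding.

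Sult1e1 (ENSMUSG00000029272), the estrogen sulfotransferase, was at 0.75, 0.33 and 0.12 TPM in Veh liver and at 44.51, 166.65 and 139.53 TPM in CORT liver. Every CORT liver was far above every Veh liver, and the means were 0.4 ± 0.321 and 117 ± 64.1 TPM (SD, n = 3), a ratio of 292. On the log2(TPM + 1) scale, which understates the change of a gene so low in Veh, the log2 fold change was 6.22 ± 0.48 (limma adjusted p = 0.00187), and the call held without any single library. Sult1e1 was listed at 0 in all 6 duodenum libraries. Sult1e1 made up 0.0654% ± 0.0537 of the summed sulfotransferase TPM in Veh liver and 15% ± 8.43 in CORT liver.

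Sult1d1 (ENSMUSG00000029273), which sulfates catecholamines and other phenols, was at 40.42, 29.01 and 47.4 TPM in Veh liver and at 217.64, 141.8 and 284.57 TPM in CORT liver. In duodenum it was at 68.57, 67.29 and 100.48 TPM in Veh and at 193.68, 353.05 and 201.19 TPM in CORT. The groups did not overlap in either tissue. The log2 fold change was 2.40 ± 0.29 in liver (limma adjusted p = 0.00693) and 1.62 ± 0.27 in duodenum (limma adjusted p = 0.0381). The difference between tissues, 0.79 ± 0.43, was not called (limma adjusted p = 0.367). The liver call held without any single library. The duodenal call was lost without any one of the 6 libraries, with limma adjusted p between 0.0631 and 0.118. It held without the acinar genes (limma adjusted p = 0.0384), and the log2 fold change was 1.79 against Veh replicate 1 alone (limma adjusted p = 0.307).

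Sult2a7 (ENSMUSG00000094156), of the hydroxysteroid-sulfating subfamily, was at 2.52, 1.06 and 2.47 TPM in Veh liver and at 10.58, 16.89 and 23.59 TPM in CORT liver. All CORT values lay above all Veh values, with a log2 fold change of 2.55 ± 0.32 (limma adjusted p = 0.00837). It was listed at 0 throughout the duodenum. Its call held without any single library. The abundant relative Sult2a8, a bile acid sulfotransferase of mouse liver that was level with Sult1a1 at the head of the family in Veh liver (means of 285 and 284 TPM), was at 340.01, 182.14 and 331.77 TPM in Veh liver and at 251.08, 158 and 117.29 TPM in CORT liver. Those groups overlapped and Sult2a8 was not called (log2 fold change -0.71 ± 0.34, limma adjusted p = 0.241). As a share of the summed sulfotransferase TPM of liver, Sult2a8 was 45% ± 13.1 in Veh and 23% ± 10 in CORT, while Sult1d1 was 6.15% ± 1.14 and 27.3% ± 7.25.

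Sult1a1 (ENSMUSG00000030711), the phenol sulfotransferase, showed a rise in duodenum that liver did not share. In duodenum it was at 2.84, 3.05 and 6.32 TPM in Veh and at 16.13, 21.11 and 20.5 TPM in CORT. In liver, where it was far more abundant, it was at 203.37, 371.73 and 276.17 TPM in Veh and at 202.7, 232.92 and 271.2 TPM in CORT. The duodenal groups were apart and the liver groups overlapped. The log2 fold change was 2.05 ± 0.26 in duodenum (limma adjusted p = 0.0189) and -0.23 ± 0.23 in liver (limma adjusted p = 0.567), and the liver value minus the duodenum value was -2.29 (limma adjusted p = 0.00902). The duodenal call was lost without Veh replicate 2 or without any one of the 3 CORT libraries (limma adjusted p between 0.0517 and 0.0657), and it held without the acinar genes (limma adjusted p = 0.0207). Against Veh replicate 1 alone the log2 fold change was 2.39 (limma adjusted p = 0.12).

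**Figure D2:**
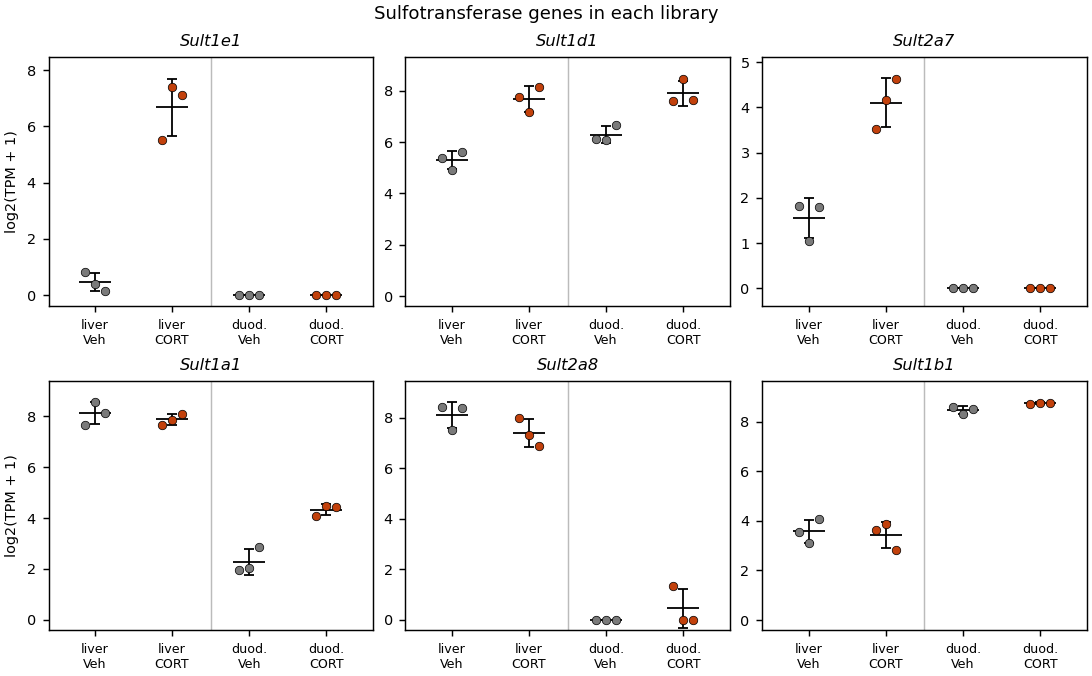
Level of 6 sulfotransferase genes as log2(TPM + 1), each panel with its own axis and each point 1 library of liver or duodenum (duod.), Veh in grey and CORT in orange, with the mean and SD of 3 libraries in black. Sult1e1, Sult1d1 and Sult2a7 are higher in every CORT liver than in any Veh liver, and Sult1a1 and Sult1d1 in every CORT duodenum than in any Veh duodenum.

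In Veh duodenum the most abundant sulfotransferases were Sult6b2, Sult1b1 and Sult2b1, and none of them was called. In CORT duodenum Sult1d1 held 16.2% ± 4.74 of the summed sulfotransferase TPM and Sult2b1 14.7% ± 3.26. Sult1b1, which sulfates thyroid hormones and phenols, was at 383.88, 313.92 and 369.67 TPM in Veh and at 415.48, 429.68 and 439.36 TPM in CORT, with no overlap but a log2 fold change of only 0.27 ± 0.13 (limma adjusted p = 0.312). Sult2b1, the cholesterol sulfotransferase, lay between 180.61 and 265.45 TPM in the 6 samples (log2 fold change -0.12 ± 0.16). Sult6b2 was at 170.85, 651.28 and 715.49 TPM in Veh and at 676.11, 649.16 and 468.16 TPM in CORT, so that Veh replicate 1 stood apart from the other 5 samples. Its log2 fold change was 0.45 ± 0.53 with all samples and -0.21 without Veh replicate 1. Of the 21 sulfotransferase genes, 8 were tested in liver and 7 in duodenum, and 10 were listed at 0 in every duodenum library. Summed over the family, liver held 608, 598 and 682 TPM in Veh and 746, 735 and 852 TPM in CORT, without overlap. Duodenum held 894, 1260 and 1429 TPM in Veh and 1554, 1637 and 1368 TPM in CORT, with overlap.

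Of 17 glucuronosyltransferases tested in liver 1 was called lower and 1 higher, beside 2.01% and 4.91% of all genes. None was called in duodenum, where 4 of 11 tested had an unadjusted p under 0.05, all of them lower. Ugt2b35 (ENSMUSG00000035811), one of the Ugt2b genes whose products conjugate steroids and bile acids, was at 49.09, 49.75 and 48.32 TPM in Veh liver and at 23.57, 20.9 and 22.94 TPM in CORT liver. Both groups were tight and lay apart, with a log2 fold change of -1.09 ± 0.11 (limma adjusted p = 0.00468), and the call held without any single library. In duodenum Ugt2b35 was at 20.67, 28.67 and 32.84 TPM in Veh and at 13.3, 15.13 and 19.12 TPM in CORT, again without overlap but not called (log2 fold change -0.74 ± 0.21, limma adjusted p = 0.127). The difference between tissues was not called either (limma adjusted p = 0.483).

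All 6 tested Ugt2 genes had a negative log2 fold change in duodenum, from -1.48 to -0.22 with a median of -0.64. The 3 CORT values lay below the 3 Veh values in 4 of them, beside 14.3% of all tested genes, and overlapped in Ugt2a3 and Ugt2b36. None was called by limma, 4 had an unadjusted p under 0.05, and all genes of the duodenum had a median of -0.01. Ugt2b38 was at 4.34, 7.24 and 9.95 TPM in Veh and at 1.22, 2.1 and 2.21 TPM in CORT (log2 fold change -1.48 ± 0.29, limma adjusted p = 0.0559). Ugt2b5, the highest Ugt2 gene of liver, was at 22.51, 37.14 and 49.41 TPM in Veh duodenum and at 12.02, 14.48 and 17.41 TPM in CORT duodenum (log2 fold change -1.20 ± 0.29, limma adjusted p = 0.0879). Veh replicate 1 was the lowest Veh sample for both. Without it both were called (limma adjusted p = 0.0292 and 0.0301), and against it alone the log2 fold changes were -0.93 and -0.60. Ugt2b38 and Ugt2b5 share 19.2% and 19.5% of their 150-base stretches of transcript with each other, so that reads could be divided between them.

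Ugt2b34, the most abundant Ugt2 gene of duodenum, was at 283.81, 313.45 and 314.74 TPM in Veh and at 156.37, 244.55 and 238.35 TPM in CORT. The groups did not overlap (log2 fold change -0.54 ± 0.19, limma adjusted p = 0.198), whereas in liver they did (0.26 ± 0.18, limma adjusted p = 0.405). The summed Ugt2 TPM of duodenum was 419, 435 and 472 in Veh and 225, 337 and 339 in CORT, a ratio of means of 0.68. In liver the sum was 1215, 1209 and 1259 TPM in Veh and 1155, 889 and 1035 TPM in CORT, a ratio of 0.836. Both sums lay lower in every CORT sample than in any Veh sample, as a description with no test.

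The Ugt1a genes are made from 1 locus in which each has its own first exon and all share the last ones, and between 56.1% and 100% of their 150-base stretches occur in another member, so that the division of reads among them is uncertain. Ugt1a10 (ENSMUSG00000090165) was at 0.77, 1.19 and 1.56 TPM in Veh liver and at 3.84, 4.92 and 2.61 TPM in CORT liver, a low level with no overlap (log2 fold change 1.13 ± 0.24, limma adjusted p = 0.0394). That call was lost without any one of 5 libraries, CORT replicate 3 being the exception (limma adjusted p between 0.0696 and 0.129). Ugt1a5 was at 23.74, 15.99 and 45.07 TPM in Veh liver and at 54.41, 96.38 and 42.65 TPM in CORT liver, which overlapped (log2 fold change 1.20 ± 0.42, limma adjusted p = 0.132). The abundant members differed little: Ugt1a7c, the highest in both tissues among Veh samples, had a log2 fold change of -0.02 ± 0.17 in liver and 0.05 ± 0.13 in duodenum, and Ugt1a1, the bilirubin glucuronosyltransferase, 0.16 ± 0.17 and -0.10 ± 0.24. The Ugt3 genes, whose products use sugars other than glucuronic acid, were listed at 0 in duodenum. In liver Ugt3a2 was at 150.49, 126.86 and 156.84 TPM in Veh and at 215.69, 204.79 and 175.91 TPM in CORT, without overlap and not called (log2 fold change 0.46 ± 0.14, limma adjusted p = 0.103). Ugt3a1 was at 38.66, 27.88 and 42.16 TPM in Veh liver and at 71.31, 54.43 and 47.45 TPM in CORT liver, again apart and not called (0.66 ± 0.21, limma adjusted p = 0.109).

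The glutathione S-transferases are the most abundant phase II genes. In liver 1 of 20 tested was called higher and 0 lower, beside 4.91% and 2.01% of all genes. In duodenum 0 of 21 were called higher and 1 lower, beside 1.23% and 0.919%. Gstm2 (ENSMUSG00000040562), of the mu class, rose in liver from 52.72, 44.15 and 66.48 TPM in Veh to 85.17, 191.35 and 161.21 TPM in CORT. Every CORT value was above every Veh value (log2 fold change 1.35 ± 0.31, limma adjusted p = 0.049). This call was at the edge: it was lost without any one of 5 libraries, CORT replicate 1 being the exception (limma adjusted p between 0.0985 and 0.127), and after median-ratio scaling of the libraries (limma adjusted p = 0.0699). In duodenum Gstm2 was at 70.59, 116.81 and 94.83 TPM in Veh and at 170.3, 162.82 and 162.18 TPM in CORT, also without overlap (log2 fold change 0.83 ± 0.19, limma adjusted p = 0.0784).

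Gstm4 (ENSMUSG00000027890), also of the mu class, fell in duodenum, from 35.92, 35.41 and 37.44 TPM in Veh to 18.35, 10.99 and 12.33 TPM in CORT. The SD of the Veh values was 1.06 TPM and the groups lay apart (log2 fold change -1.35 ± 0.19, limma adjusted p = 0.0253). The call was lost without any one of 5 libraries, CORT replicate 1 being the exception (limma adjusted p between 0.0509 and 0.103), and it held without the acinar genes (limma adjusted p = 0.0229). Against Veh replicate 1 alone the log2 fold change was -1.34 (limma adjusted p = 0.347). In liver Gstm4 was between 23.66 and 38.86 TPM in all 6 samples, with overlap (log2 fold change -0.16 ± 0.21). The difference between tissues was 1.19 ± 0.30 and missed the threshold (limma adjusted p = 0.0556).

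Gstm3 and Gstm1, the abundant mu-class genes of duodenum, differed from Gstm4 in direction. Gstm3 was at 529.53, 595.6 and 476.54 TPM in Veh and at 1366.24, 1257.73 and 824.44 TPM in CORT (log2 fold change 1.08 ± 0.22, limma adjusted p = 0.0598). Gstm1 was at 229.85, 302.76 and 318.02 TPM in Veh and at 474.36, 458.1 and 379.58 TPM in CORT (log2 fold change 0.63 ± 0.17, limma adjusted p = 0.118). Neither was called, and in neither did the groups overlap. In liver Gstm1, by far the highest mu-class gene there, varied from 1215.42 to 2577.05 TPM among Veh samples and from 1088.99 to 2113.8 TPM among CORT samples (log2 fold change -0.21 ± 0.33). The summed mu-class TPM of duodenum was 1043, 1238 and 1112 in Veh and 2224, 2028 and 1565 in CORT, a ratio of means of 1.71, while in liver the sums overlapped with a ratio of 0.934.

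**Figure D3:**
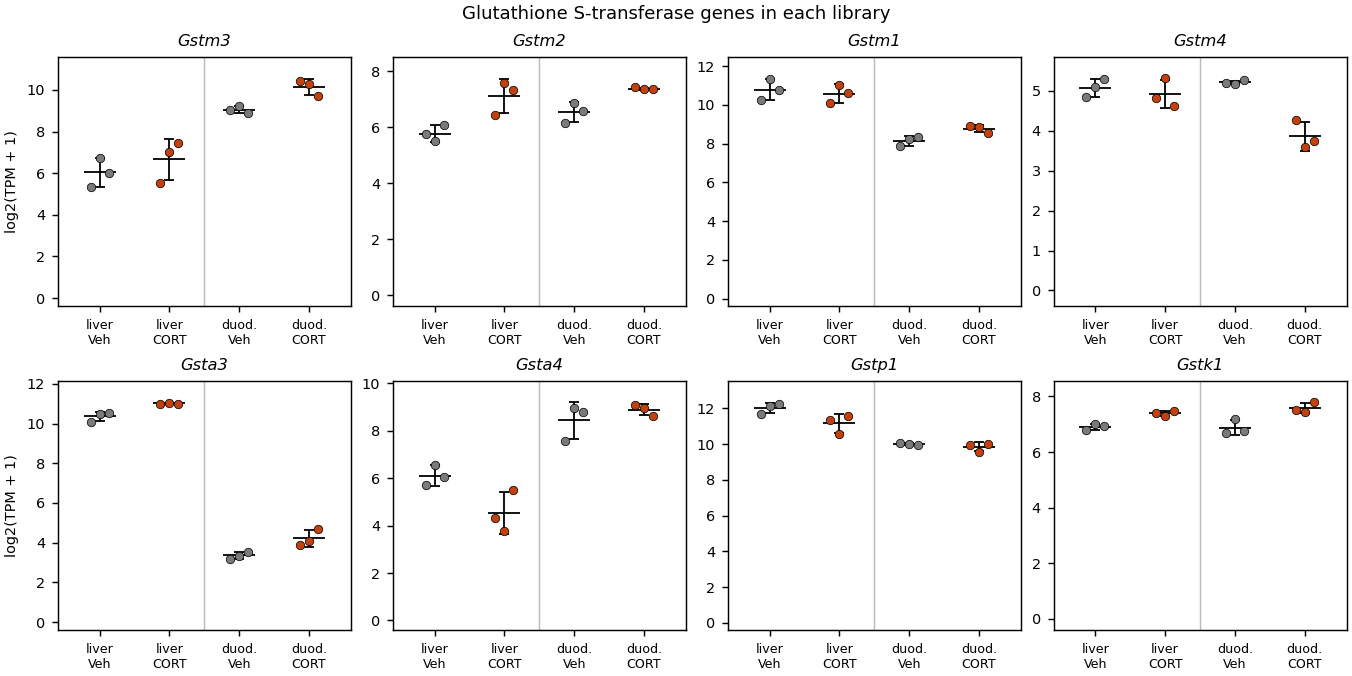
Level of 8 glutathione S-transferase genes as log2(TPM + 1), each panel with its own axis and each point 1 library of liver or duodenum (duod.), Veh in grey and CORT in orange, with the mean and SD of 3 libraries in black. In duodenum every CORT sample lies above every Veh sample for Gstm3, Gstm2 and Gstm1 and below for Gstm4.

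The alpha class was led in liver by Gsta3, known for conjugating aflatoxin epoxide in mice. Gsta3 was at 1098.07, 1407.83 and 1478.92 TPM in Veh liver and at 2049.67, 2130.76 and 2017.3 TPM in CORT liver, clear of overlap, and missed the threshold with a limma adjusted p of 0.0506 (log2 fold change 0.65 ± 0.15). The other 3 tested alpha-class genes of liver were lower in CORT and not called. Of these Gsta4, which conjugates the lipid peroxidation product hydroxynonenal, was at 50.9, 94.57 and 65.01 TPM in Veh liver and at 19.02, 12.67 and 44.33 TPM in CORT liver, without overlap (log2 fold change -1.57 ± 0.44, limma adjusted p = 0.0802). Without CORT replicate 3, the highest CORT value, Gsta4 was called (log2 fold change -2.06, limma adjusted p = 0.0211). Gsta1 was at 5.18, 16.57 and 10.42 TPM in Veh liver and at 1.68, 5.05 and 5.82 TPM in CORT liver (log2 fold change -1.16 ± 0.47, limma adjusted p = 0.178), with a slight overlap. All 4 had an unadjusted p under 0.05, and limma called none. Gsta3 made up 91.5% ± 2.26 of the summed alpha-class TPM in Veh liver and 97.6% ± 1.41 in CORT liver.

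In duodenum the alpha class was instead led by Gsta1, at 973.95, 1974.72 and 1684.52 TPM in Veh and at 1477.57, 1349.77 and 811.43 TPM in CORT. The groups overlapped (log2 fold change -0.33 ± 0.33, limma adjusted p = 0.61), and Veh replicate 1 was again the lowest Veh sample. Gsta1 shares 73.7% of its 150-base stretches with other genes, most of them with Gm3776, so its level is uncertain. Gsta4 was at 188.18, 493.77 and 443.54 TPM in Veh duodenum and at 549.42, 491.24 and 395.45 TPM in CORT duodenum (log2 fold change 0.46 ± 0.36, limma adjusted p = 0.526). The liver value of Gsta4 minus its duodenum value was -2.03 ± 0.63 and was not called (limma adjusted p = 0.114).

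Gstp1, of the pi class, was the highest phase II gene of Veh liver. It was at 3339.59, 4511.32 and 4876.66 TPM in Veh liver and at 2645.23, 1513.3 and 3064.66 TPM in CORT liver, with every CORT value below every Veh value but no call (log2 fold change -0.86 ± 0.29, limma adjusted p = 0.121). In duodenum all 6 values lay between 755.36 and 1062.78 TPM and overlapped (log2 fold change -0.17 ± 0.16, limma adjusted p = 0.598). Gstp1 shares 41.8% of its 150-base stretches with Gstp2. Gstp2 was lower in every CORT duodenum than in any Veh duodenum (log2 fold change -0.56 ± 0.21, limma adjusted p = 0.207). Gstp3, at a low level, was at 17.84, 16.25 and 14.79 TPM in Veh duodenum and at 10.18, 4.4 and 7.65 TPM in CORT duodenum (log2 fold change -1.10 ± 0.26, limma adjusted p = 0.0879).

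No gene of the remaining classes was called by limma, although 3 of the 6 tested in liver and 1 of the 6 in duodenum had an unadjusted p under 0.05. Gstk1, an enzyme of mitochondria and peroxisomes, was at 109.81, 127.86 and 120.21 TPM in Veh liver and at 168.06, 156.8 and 177.55 TPM in CORT liver. In duodenum it was at 101.71, 144.3 and 106.72 TPM in Veh and at 182.88, 172.11 and 220.38 TPM in CORT. The groups lay apart in both tissues, with log2 fold changes of 0.49 ± 0.12 (limma adjusted p = 0.0604) and 0.71 ± 0.18 (limma adjusted p = 0.0972). Gstz1, the maleylacetoacetate isomerase of tyrosine breakdown, was at 612.07, 620.63 and 668.13 TPM in Veh liver and at 749.17, 820.45 and 696.06 TPM in CORT liver (log2 fold change 0.25 ± 0.12, limma adjusted p = 0.255). Gstt3, of the theta class, was at 31.27, 24.56 and 42.29 TPM in Veh liver and at 51.89, 76.98 and 61.23 TPM in CORT liver, without overlap and just short of the threshold (log2 fold change 0.95 ± 0.23, limma adjusted p = 0.0564), while its duodenal value was -0.02 ± 0.13. Gstt2, of the same class, was lower in every CORT liver than in any Veh liver (log2 fold change -0.62 ± 0.20, limma adjusted p = 0.109). Gstt1, the most abundant of the class, had log2 fold changes of -0.09 ± 0.19 in liver and 0.03 ± 0.16 in duodenum. Gsto1, of the omega class, which reduces dehydroascorbate, had -0.20 ± 0.25 and -0.16 ± 0.19. Gsto1 and Gstt1 changed sign when single libraries were left out.

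**Figure D4:**
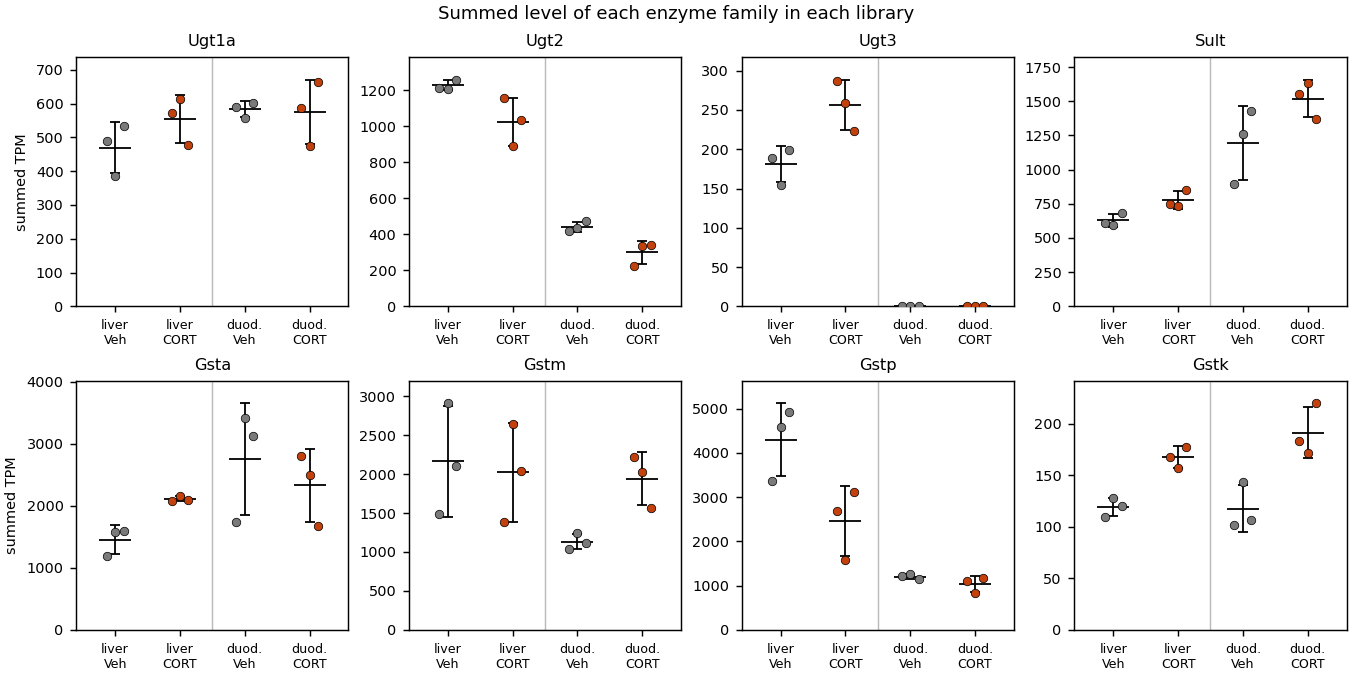
Summed TPM of 8 enzyme families, each panel with its own axis from 0 and each point 1 library of liver or duodenum (duod.), Veh in grey and CORT in orange, with the mean and SD of 3 libraries in black. In liver the Gstp sum lies between 3376 and 4934 in Veh and between 1576 and 3120 in CORT, and in duodenum the Gstm sum lies between 1043 and 1238 in Veh and between 1565 and 2224 in CORT.

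Summed over all 65 genes the phase II enzymes held 1.17% of the listed TPM in Veh liver and 1.07% in CORT liver, and 0.866% and 0.905% in duodenum, with overlapping sums in both tissues. Within this, the glutathione S-transferases held 0.918% in Veh liver and 0.809% in CORT liver. These sums are descriptions with no test.

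Many of these genes lie side by side, and neighbours did not always move together. The order of protein-coding genes was taken from RefSeq. The 7 mu-class genes follow each other without another coding gene between them, in the order Gstm5, Gstm7, Gstm6, Gstm3, Gstm2, Gstm1 and Gstm4. In duodenum their log2 fold changes in that order were 0.12, -0.29, -0.09, 1.08, 0.83, 0.63 and -1.35, so that the 3 adjacent genes Gstm3, Gstm2 and Gstm1 were the ones with all CORT values above all Veh values and their neighbour Gstm4 was called lower. In liver the same order gave -0.11, -0.21, -0.12, 0.63, 1.35, -0.21 and -0.16. On another chromosome 10 Ugt2 genes are followed by Sult1b1, Sult1d1 and Sult1e1. Of these 3 sulfotransferases, Sult1b1 had a log2 fold change of -0.15 in liver, Sult1d1 2.40 and Sult1e1 6.22. None of the 8 tested Ugt2 genes beside them was called higher in liver.

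**Figure D5:**
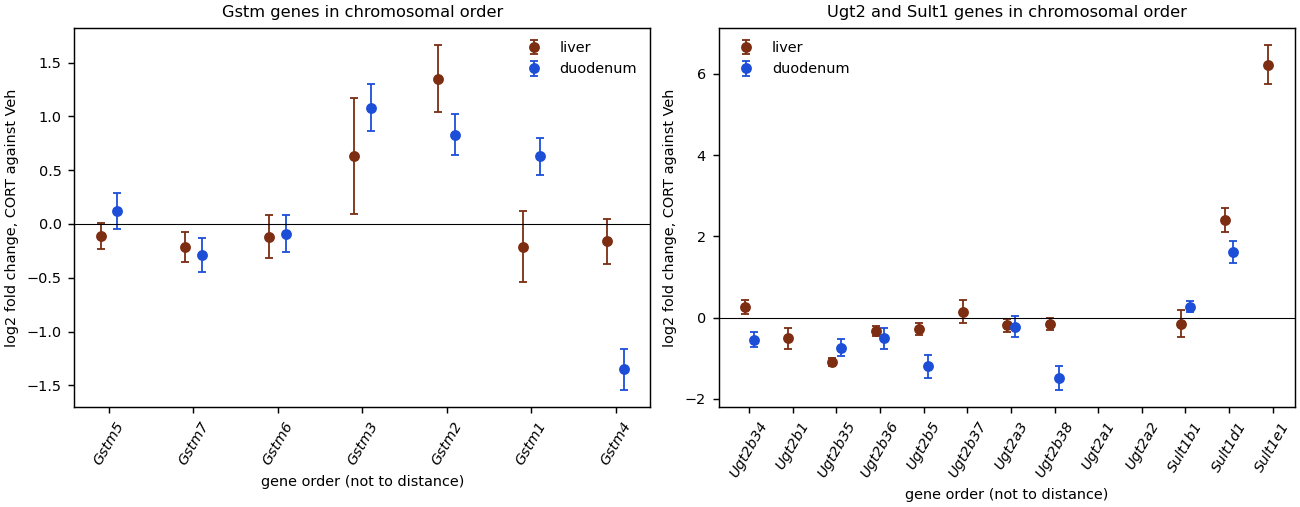
Log2 fold change of CORT against Veh, with bars of 1 SE, for the mu-class glutathione S-transferase genes at the left and the Ugt2 and Sult1 genes at the right, in their order along the chromosome, not to distance and with no point where a gene was not tested. Gstm3, Gstm2 and Gstm1 are above 0 and Gstm4 below 0 in duodenum, and Sult1d1 and Sult1e1 stand above every tested gene before them in liver.

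Whether the response differed between liver and duodenum was tested by a treatment by tissue term over all 12 libraries. Of 50 phase II genes tested, 3 were called, beside 3.6% of all genes, and all were sulfotransferases: Sult1e1, Sult2a7 and Sult1a1. For Sult1e1 and Sult2a7 the duodenal side of the comparison was a gene listed at 0, so that the difference is that of liver alone. The calls held without any single library. Of the 34 genes tested in both tissues, 21 had log2 fold changes of the same sign and 13 of opposite sign.

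The supply of the conjugating groups was examined through lists of genes outside the families, beside a background of 4.91% of all genes called higher and 2.01% lower in liver and of 1.23% and 0.919% in duodenum. For glucuronidation, UDP-glucose dehydrogenase (Ugdh), which makes the donor sugar, had a log2 fold change of 0.03 in liver and -0.06 in duodenum, where limma called 0 of 6 genes of this list (0 at an unadjusted p under 0.05). For PAPS supply limma called 0 of 7 genes in liver (3 at an unadjusted p under 0.05) and 0 of 8 in duodenum (2 at an unadjusted p under 0.05). For glutathione supply, glutathione synthetase (Gss) fell in liver (log2 fold change -0.86, limma adjusted p = 0.0357). In duodenum Gclc, the catalytic subunit of the rate-limiting enzyme, rose from 14.23, 32.85 and 20.53 TPM to 107.43, 92.83 and 66.3 TPM (log2 fold change 1.98, limma adjusted p = 0.031), while G6pdx, a source of NADPH, fell (log2 fold change -0.91, limma adjusted p = 0.0336). In this list 3 of 7 tested genes in liver and 6 of 7 in duodenum had an unadjusted p under 0.05. The share of all genes at that limit is not given here. Its median log2 fold change was -0.35 in liver and -0.56 in duodenum, beside 0.08 and -0.01 for all genes. Among other glutathione transferases, most of them membrane proteins, the microsomal enzyme Mgst1 rose in duodenum from 281.21, 247.16 and 360.14 TPM to 1006.74, 1082.37 and 1135.5 TPM (log2 fold change 1.87, limma adjusted p = 0.00621), 1 of 7 tested there. In liver limma called 0 of 3 (0 at an unadjusted p under 0.05). Of 16 tested genes of methyl, acetyl and amino acid conjugation, the other conjugation reactions, Nnmt, a nicotinamide methyltransferase, was called higher in liver (1.41, limma adjusted p = 0.039), and limma called 0 of 10 in duodenum (3 at an unadjusted p under 0.05). A list for the removal of conjugates and for mercapturate steps also took in sulfatases of heparan sulfate, which is not a phase II conjugate. Of its genes, the liver had Sulf2, such a sulfatase, called higher (1.55) and Acy3 lower (-0.79) of 10. The duodenum had Acy1 called higher (1.25) of 12.

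Known targets of CAR and PXR outside these families were called higher for 5 of 13 tested genes in liver and 4 of 11 in duodenum, with 1 lower in duodenum. Of all genes, 4.91% were called higher in liver, and 1.23% higher and 0.919% lower in duodenum. In liver Cyp2b10 had a log2 fold change of 8.29, Cyp3a11 1.59 and Por 1.75, and in duodenum Cyp3a11 had 2.34 and Por 1.26, while Cyp2c55 fell by 2.83 on the log2 scale. Of the NRF2 targets outside the families, limma called 0 of 10 in liver (2 at an unadjusted p under 0.05), and in duodenum Gclc was called higher and Nqo1 lower (log2 fold change -1.59, limma adjusted p = 0.0189) of 12. Among 18 tested regulators in liver, the hepatocyte factor Hnf4a was called higher (log2 fold change 0.86, limma adjusted p = 0.0211). The regulator called in duodenum was Ppara (1.21). The medians of these lists were 0.80 in liver and 0.58 in duodenum for the CAR and PXR targets, beside 0.08 and -0.01 for all genes, and 0.08 in both tissues for the NRF2 targets.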

How the data were processed

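Expression was taken from 2 tables of TPM (length-corrected transcript abundance, scaled within a library) per gene, 1 for liver and 1 for intestine. Per the labels and the methods of the study, the authors made the deposited TPM values from paired reads of 150 bases that were trimmed with SeqPrep and Sickle, aligned with HISAT2, assembled with StringTie and quantified with RSEM. The submitters' processing notes name GRCm39, and tool versions are not given in the sources used here. TPM is scaled within each library, so depth is unknown and intervals for counting error cannot be given. The precision comes from the spread between the 3 samples of a group, moderated by limma across the kept genes.

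Groups and replicate numbers came from the sample labels, and table columns carry the same names. Values were moved to a log2 scale after adding 1 TPM. A gene was kept if the mean of Veh or of CORT reached 1 TPM, which left 11699 in liver and 13607 in duodenum. Treatment was fitted in each tissue with limma 3.58.1 in R 4.3.3 (eBayes with a trend). Every adjusted p printed here is limma's, with Benjamini-Hochberg adjustment across the kept genes. The treatment by tissue term used all 12 libraries and 14806 genes. The scripts were tested on simulated data. The members and lists were chosen with earlier results of these data known.

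Named were the called genes, the highest gene of each family and tissue among Veh samples, the 3 largest changes per tissue that were not called, and in each list up to 4 called genes with the smallest adjusted p. Other genes of these families, Ugdh and the gene clusters were named after their values were seen. Promoters and gene order are RefSeq's for GRCm38.p6, which is not the build of the tables, and overlaps of transcripts are from GENCODE release M21. Same-numbered Veh and CORT samples of a tissue did not deviate together (correlations between -0.12 and 0.073), so the main fits did not pair them. Liver and duodenum samples with the same number were not compared in this way. The treatment by tissue term took all libraries as independent, which was not tested. Each p-value weighs a difference against the spread between samples within the groups. Results of some genes in the lists are not reported here.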

Additional observations from a re-analysis of the deposited data

Results flagged for a closer look

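The treatment by tissue test called 3 genes. For Sult1e1 and Sult2a7, both listed at 0 in duodenum, the difference is that of liver alone. Sult1e1 had a log2 fold change in liver that exceeded the one in duodenum by 6.22 (limma adjusted p = 0.000222), higher in 3 of 3 CORT livers and listed at 0 in all duodenum samples. For Sult2a7 the difference was 2.55 (limma adjusted p = 0.00514), and this gene too was listed at 0 in duodenum. Sult1a1 went the other way, with a difference of -2.29 (limma adjusted p = 0.00902): it was higher in 3 of 3 CORT duodenum samples than in any Veh sample and overlapped in liver.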

How the results depend on the processing

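Each result was recomputed with a pseudocount of 0.1, with no filter on low values, with the replicate number as a block, with median-ratio scaling, with adjusted p alone, in a joint fit of both tissues, and after dropping every library once. The 5 genes called higher in liver became 3 with no filter on low values and 3 with the replicate block. They became 4 with median-ratio scaling, 6 in the joint fit and 3 to 5 when leaving out 1 library. The gene called lower in liver became 3 in the joint fit and 1 to 2 when leaving out 1 library. In duodenum the 2 called higher became 0 with no filter, 1 with the replicate block, 0 with Veh replicates 2 and 3 left out, 4 in the joint fit and 0 to 1 when leaving out 1 library. The 1 called lower became 2 with a pseudocount of 0.1, 0 with no filter, 0 with the replicate block, 0 with Veh replicates 2 and 3 left out, 4 in the joint fit and 0 to 2 when leaving out 1 library. The 3 differences between tissues became 3 to 5 when leaving out 1 library. No filter means more genes tested, and a block or a left-out library means fewer degrees of freedom. The cause of the other changes was not tested.

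Of 606 alternative values for single genes, 539 kept their direction and side of the threshold, 39 lost the call, 12 gained one and 16 changed sign, all of them for genes that were not called. With Veh replicates 2 and 3 left out, which assumes that the lone Veh sample varies like the others, Gsta1 in duodenum was at 0.27, and without the acinar genes Gstt1 was at -0.0025. Leaving out 1 library gave -0.20 to 0.08 for Ugt1a7c, -0.47 to 0.07 for Gstm1, -0.22 to 0.07 for Gstt1 and -0.43 to 0.07 for Gsto1 in liver. In duodenum it gave -0.02 to 0.15 for Ugt1a7c, -0.21 to 0.82 for Sult6b2, -0.07 to 0.19 for Gstt1 and -0.25 to 0.00087 for Gsto1.

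Over all liver genes, 575 were called higher and 235 lower, and 543 and 468 after median-ratio scaling. With the replicate block these were 220 and 87 in liver and 39 and 23 in duodenum, where the fit without it gave 167 and 125. With no filter they were 210 and 73, and 38 and 14. In the joint fit liver had 874 and 412 and duodenum 329 and 332, and with Veh replicates 2 and 3 left out duodenum had 2 and 8. Leaving out 1 library gave 184 to 675 higher and 63 to 156 lower in liver, and 47 to 124 and 18 to 113 in duodenum. For the difference between tissues 340 genes were called above and 193 below 0, beside 336 and 324 after median-ratio scaling and 148 and 63 with the replicate block. With TPM alone the depth of the libraries, and so the error of low genes such as Ugt1a10, cannot be judged.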

Other observations

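Some phase II genes were too low for a test and still differed in detection. Sult3a1, a sulfotransferase known from female liver, was listed at 0 in the 3 Veh livers and at 0, 0.82 and 0.17 TPM in the CORT livers. Sult2a8 was listed at 0 in 5 duodenum samples and at 1.55 TPM in CORT replicate 1. Ugt2b37 was at 0.11, 0.06 and 0.06 TPM in Veh duodenum and listed at 0 in the 3 CORT samples. Sult2a1 lay between 0 and 0.17 TPM in liver, and Sult2a2 between 0 and 0.08 TPM. These values were picked after they were seen and carry no test.

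Gsta5 belongs to the genes that separated the tissues: it was at 538.18, 882.48 and 944.1 TPM in Veh duodenum and at 735.24, 607.3 and 431.68 TPM in CORT duodenum, and in liver it was listed at 0 in all but Veh replicate 1, at 0.21 TPM. Gsta3 had the opposite pattern, with 8.01, 9.1 and 10.7 TPM in Veh duodenum and 13.78, 16.01 and 24.97 TPM in CORT duodenum (log2 fold change 0.87 ± 0.23, limma adjusted p = 0.106), far below its level in liver. Veh replicate 1 of duodenum, the Veh sample with the lowest sum of the acinar genes, was also the lowest Veh sample for Gsta1, Gsta2, Gsta4, Gsta5 and Sult6b2. A relation of these levels to the acinar transcripts was not tested.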
